A study of Mus musculus with 10 samples.

Results

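The immediate early genes studied here are 10 genes, Fos, Fosb, Jun, Junb, Egr1, Egr2, Egr3, Atf3, Ier2 and Nr4a1, of 42989 genes measured by RNA sequencing. They were chosen by symbol in the deposited tables, and each symbol matched 1 gene. The RNA came from distal ileum, where the small bowel ends, of 10 male wild-type C57BL/6J mice with diet-induced obesity. In 5 of them TDCA (taurodeoxycholic acid, a bile acid made by gut bacteria and joined to taurine) had been given by oral gavage at 10 mg per kg of body weight for 4 weeks from 10 weeks of age, and the other 5 had received water in the same volume. The libraries are called TDCA 1 to 5 and water 1 to 5. The comparison asks which of these transcripts differed after 4 weeks of the bile acid.

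Immediate early genes are switched on within minutes of a growth factor, calcium, stress or mechanical signal, before any new protein is made. Kinases of the ERK, p38 and calcium pathways phosphorylate factors already bound at their promoters, chiefly SRF with its ternary complex partners at CArG boxes and CREB at cyclic AMP response elements. Their mRNAs decay quickly, so their level in a tissue reports signalling shortly before it was frozen. Fos and FosB pair with Jun or JunB to form AP-1, EGR1 to EGR3 are zinc finger transcription factors, ATF3 is a stress-induced relative of AP-1, NR4A1 is an orphan nuclear receptor and IER2 is a nuclear protein.

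Promoters are shown for Egr2, the gene that stood apart between the groups, for Fos and Fosb, a pair correlated by rank, and for Junb. Pearson's r of Fos and Fosb did not pass after adjustment (below). Each promoter is the 250 bases before the transcription start, 5′ to 3′ on the strand of the gene, from RefSeq's GRCm38.p6 table. The table holds 7 of the 10 members and lacks Egr1, Egr3 and Ier2. It holds 5 start sites for Egr2, and the window shown is that of its first GENCODE M21 transcript. Capitals mark matches on either strand to the CArG box, to TGACG, which is the first 5 bases of the cyclic AMP response element TGACGTCA and so overlaps any match to it, to the AP-1 site TGANTCA and to the EGR site GCGNGGGCG.

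Egr2 (GRCm38.p6, chr10:67537619-67537868, plus strand): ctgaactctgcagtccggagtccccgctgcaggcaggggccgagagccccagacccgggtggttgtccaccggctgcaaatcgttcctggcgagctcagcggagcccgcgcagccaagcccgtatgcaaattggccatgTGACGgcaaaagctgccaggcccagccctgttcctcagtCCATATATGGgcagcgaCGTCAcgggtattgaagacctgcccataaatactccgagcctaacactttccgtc
Fos (GRCm38.p6, chr12:85473640-85473889, plus strand): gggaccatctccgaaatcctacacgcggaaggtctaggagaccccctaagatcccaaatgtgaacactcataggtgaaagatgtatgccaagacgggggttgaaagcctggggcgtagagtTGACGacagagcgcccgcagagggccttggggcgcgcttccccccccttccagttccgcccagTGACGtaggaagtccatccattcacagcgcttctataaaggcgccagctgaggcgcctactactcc
Fosb (GRCm38.p6, chr7:19310046-19310295, minus strand): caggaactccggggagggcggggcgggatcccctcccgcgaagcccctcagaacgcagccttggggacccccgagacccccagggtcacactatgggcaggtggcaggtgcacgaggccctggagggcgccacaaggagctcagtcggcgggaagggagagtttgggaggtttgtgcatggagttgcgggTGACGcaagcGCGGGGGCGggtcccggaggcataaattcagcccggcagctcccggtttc
Junb (GRCm38.p6, chr8:84978749-84978998, minus strand): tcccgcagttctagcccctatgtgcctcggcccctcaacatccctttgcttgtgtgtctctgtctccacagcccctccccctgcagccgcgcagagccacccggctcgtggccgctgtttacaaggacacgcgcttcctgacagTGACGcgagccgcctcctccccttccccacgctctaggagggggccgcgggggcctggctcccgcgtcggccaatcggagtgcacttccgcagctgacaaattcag

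The Egr2 window held the CArG box CCATATATGG at positions -72 to -63 relative to the start. A CArG box was in 1.47% of the 32851 promoter windows of the same length in the table, and Egr2 was the 1 member of 7 with one in these windows. The letters TGACG or their complement were in windows of 6 of the 7 members (Fos, Fosb, Junb, Egr2, Atf3 and Nr4a1), against 17.8% of all windows. In Fos they lay at -129 to -125 and at -66 to -62, in Fosb at -60 to -56 and in Junb at -106 to -102. The EGR site was matched in Fosb and Nr4a1 and in 4.70% of all windows, and TGACGTCA (1.55% of all windows) and TGANTCA (6.75%) in 0 of the 7 members. A match describes the letters only.

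The libraries held between 27349003 and 44342245 reads on genes. Their number did not separate the groups (p = 0.294, exact permutation, two-sided). The 17507 genes that reached 10 normalized counts in 5 or more libraries were tested by limma on log2(normalized count + 1), and fold changes below are on that scale, which understates the change of low genes. An adjusted p is Benjamini-Hochberg adjusted over all genes tested, with a threshold of 0.05, and an exact p is from all ways of dividing the 10 libraries into 5 and 5, two-sided, with a smallest possible value of 0.00794. The ileal bile acid genes Fabp6 (28629 to 60372 normalized counts in TDCA and 43004 to 105767 in water) and Slc10a2 (14942 to 33583 in TDCA and 11827 to 34722 in water) were high in every library, as the tissue label requires. Libraries differed in composition. Smooth muscle markers were higher in TDCA for 11 of 11 genes (summed level 168449 to 294563 normalized counts in TDCA and 75529 to 221734 in water). This direction was not particular to muscle. Markers of fibroblasts (6 of 6), endothelium (5 of 5), interstitial cells of Cajal (3 of 3) and B cells (6 of 6) were higher as well. So were those of enteric neurons (8 of 9), enteric glia (5 of 6) and macrophages (5 of 8), against 3 of 9 T cell markers. Products of Paneth cells, the antimicrobial cells of the crypt base, were lower for 7 of 7 (14634 to 31112 in TDCA and 27489 to 35425 in water), and enterocyte markers for 9 of 10 (462998 to 1015760 in TDCA and 862928 to 1214170 in water). None of the sums of 12 marker lists passed (smallest exact permutation p = 0.0397, adjusted p = 0.229 over the 12 lists), and every marker had a read in at least 1 library. Long transcripts were relatively higher in TDCA libraries: the correlation across genes between transcript length and centred level averaged 0.07 ± 0.07 in TDCA and -0.10 ± 0.05 in water (SD, n = 5 each, Spearman, exact permutation p = 0.0159). In bulk tissue fewer cells of a type and less RNA per cell cannot be told apart.

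All 10 members passed the filter on low values, and none passed limma's test in either direction (adjusted p of at least 0.448), where 0% of all tested genes passed. At an unadjusted p under 0.05 there was 1 member, Egr2, against 11% of all tested genes in either direction and 5.01% lower in TDCA. Groups were free of overlap for 1 member, again Egr2, with TDCA below water. Among all tested genes this held for 1.4%, TDCA being below water in 0.823% and above it in 0.577%. The median log2 fold change was -0.13 over the 10 members and -0.01 over all tested genes, with 6 members lower and 4 higher in TDCA, where 52.1% of all tested genes were lower.

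Egr2 (ENSMUSG00000037868), a zinc finger factor best known for hindbrain patterning, myelination by Schwann cells and restraint of T cell activation, was the member with the largest difference. It had 8.75, 1.02, 3.49, 2.57 and 7.10 normalized counts in TDCA 1 to 5, and 10.8, 16.8, 18.3, 16.7 and 12.2 in water 1 to 5. The 5 TDCA libraries were all below the 5 water libraries. The means were 4.59 ± 3.23 in TDCA and 14.95 ± 3.26 in water (SD, n = 5 each), a log2 fold change of -1.71 (SE 0.43, limma unadjusted p = 0.00184, adjusted p = 0.448, exact permutation p = 0.00794). It ranked 40 among the 17507 genes by p. It had been noted in these data before, so the separation is a description and not independent support.

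Egr2 was also the member measured with the fewest reads. TDCA 1 to 5 held 10, 1, 4, 3 and 8 reads of it and water 1 to 5 held 9, 15, 17, 14 and 14, or 26 reads in all TDCA libraries (exact 95% Poisson interval 17.0 to 38.1) and 69 in all water libraries (53.7 to 87.3), intervals that cover counting error only. The highest TDCA library and the lowest water library were not separable by counting, at 10 reads (4.80 to 18.4) in TDCA 1 and 9 reads (4.12 to 17.1) in water 1. Egr2 passed the filter only through the group where it was high, with 0 TDCA and 5 water libraries at 10 or more, so that having passed it, the gene had to differ. With no filter its adjusted p was 0.547, and 47 of 42989 genes (0.109%) had a p as small.

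**Figure D1:**
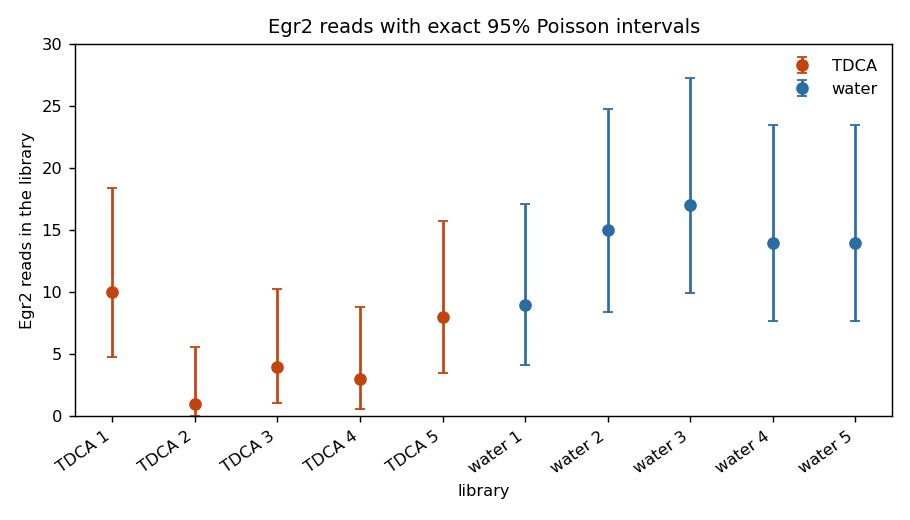
Egr2 reads in each of the 10 libraries (vertical axis, reads; points) with exact 95% Poisson intervals (bars), TDCA libraries at left and water libraries at right. TDCA libraries held 1 to 10 reads and water libraries 9 to 17, and the intervals of TDCA 1 and water 1 cover nearly the same range.

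In the authors' deposited table the log2 fold change of Egr2 was -1.69 (SE 0.51) with a p of 0.00092, where 5.15% of the 42949 genes with a p had one under 0.05 and 2.31% had one with a lower level in TDCA. The shrunken log2 fold change of Egr2 there, an estimate pulled towards 0, was -0.118. Of the genes tested by limma, 0.577% had a p in the authors' deposited table at or below that of Egr2. That table gives no adjusted p for Egr2 or Egr3, and lists an adjusted p under 0.05 for 0.181% of the 13800 genes that have one. In the authors' deposited table the other 8 members had adjusted p-values from 0.664 (Jun) to 0.969 (Fos).

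Egr2 was then set against each other member within the same library, as a difference of log2 levels. Egr2 relative to Ier2 was -6.49 ± 0.97 in TDCA and -4.86 ± 0.40 in water (SD, n = 5 each), and relative to Nr4a1 -3.69 ± 1.35 in TDCA and -1.62 ± 0.75 in water, without overlap in both cases (exact permutation p = 0.00794, adjusted p = 0.0286 over the 9 members compared). The differences from Jun (-1.47), Junb (-1.51) and Egr1 (-1.75) passed as well (adjusted exact permutation p = 0.0286). Those from Fos (-1.48), Fosb (-2.03), Egr3 (-1.83) and Atf3 (-1.49) did not (adjusted exact permutation p = 0.107, 0.0595, 0.0714 and 0.167). These comparisons were made after the low values of Egr2 were known, and all 9 share those values. Egr2 had also passed the filter only through the water libraries. The 9 comparisons therefore describe its distance from the other members and are no further evidence for a difference of Egr2.

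None of the 12 marker lists had a correlation with Egr2 over the 10 libraries that passed. The smallest p of a Pearson r was that of endothelium (r = -0.56, permutation p = 0.0915, adjusted p = 0.800 over 120 relations; rho = -0.28, permutation p = 0.428). With enteric glia, relatives of the Schwann cells in which the gene is known, r was 0.42 (permutation p = 0.237) and rho 0.49 (permutation p = 0.153). The length measure differed between the same groups as Egr2. Its r with Egr2 over the 10 libraries was -0.69 (no test), a value that includes the difference between the groups. The part of length in the difference of Egr2 was not tested. Adjusted for a smooth muscle score, the log2 fold change of Egr2 was -1.99.

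In its family, Egr1 and Egr3 did not pass the test. Egr1 (ENSMUSG00000038418), which is induced by nearly every growth signal, had 238, 134, 146, 197 and 132 normalized counts in TDCA 1 to 5, and 154, 238, 281, 35.9 and 273 in water 1 to 5. The ranges overlapped, and water 4 was the lowest library of all. Its log2 fold change was 0.05 (SE 0.50, adjusted p = 0.978, exact permutation p = 0.976). Without water 4 it was -0.48 (adjusted p = 0.450).

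Egr3 (ENSMUSG00000033730), which acts with Egr2 in lymphocytes, had 16.6, 44.9, 11.4, 26.6 and 42.6 normalized counts in TDCA 1 to 5, and 14.4, 17.9, 12.9, 21.5 and 85.9 in water 1 to 5. Water 5 stood far above the other water libraries, and the groups overlapped. The log2 fold change was 0.12 (SE 0.52, adjusted p = 0.942, exact permutation p = 0.873).

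The level of Egr3 followed the B cell markers of the library. The summed level of 6 of them (Ms4a1, Cd79a, Cd79b, Pax5, Cr2 and Cxcr5) was 312, 1096, 82.1, 501 and 1395 normalized counts in TDCA 1 to 5, and 86.5, 452, 109.6, 349 and 3366 in water 1 to 5. B cells gather in the lymphoid follicles and Peyer's patches of the ileum. The libraries with the most Egr3, water 5, TDCA 2 and TDCA 5, were those with the most B cell RNA. On log2 scales Pearson's r was 0.96 (permutation p = 3.00e-05) and Spearman's rho 0.96 (permutation p = 9.00e-05) over 10 libraries. Of 120 relations, those of 10 members with 12 marker lists, it was the 1 that passed (adjusted p = 0.00360 for r and 0.0108 for rho). Leaving out the libraries farthest from the median B cell level, water 5 and TDCA 3, left r at 0.92, and r was 0.97 within the TDCA and 0.95 within the water libraries (n = 5 each, no test). The relation was looked for after the values had been seen.

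**Figure D2:**
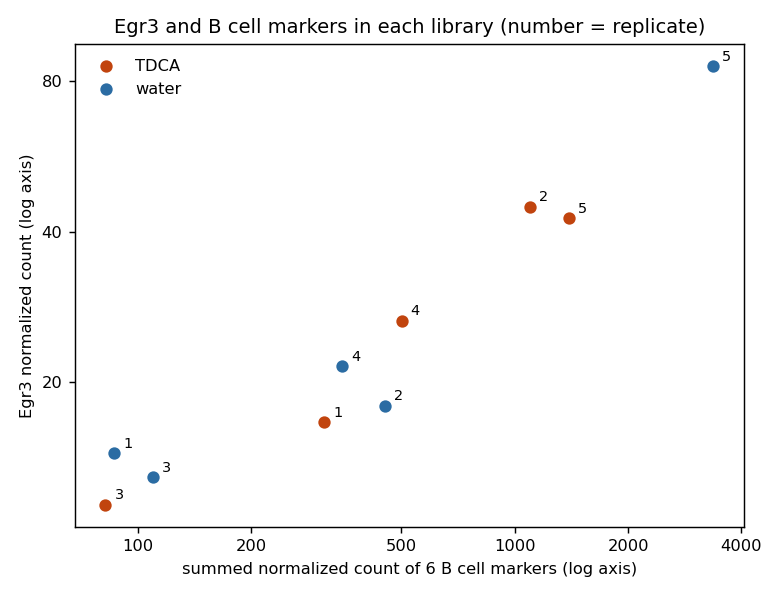
Egr3 normalized count (vertical, log axis) against the summed normalized count of 6 B cell markers (horizontal, log axis) in each library, numbered by replicate, TDCA and water in different colours. The points lie along 1 rising line in both groups, from TDCA 3 at 82.1 and 11.4 to water 5 at 3366 and 85.9.

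The AP-1 subunits did not differ between the groups beyond their spread. Fos (ENSMUSG00000021250) had 2240, 1446, 862, 835 and 358 normalized counts in TDCA 1 to 5, and 1929, 1356, 1136, 605 and 1020 in water 1 to 5. The highest and the lowest library were both TDCA libraries. Its log2 fold change was -0.23 (SE 0.46, adjusted p = 0.875, exact permutation p = 0.690), and 0.13 without TDCA 5.

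Fosb (ENSMUSG00000003545), a closely related partner of Jun proteins, had 103, 165, 46.3, 28.3 and 30.2 normalized counts in TDCA 1 to 5, and 109, 61.7, 65.5, 10.8 and 43.4 in water 1 to 5. The lowest library, water 4, was also the lowest for Egr1, Atf3 and Nr4a1. The log2 fold change of Fosb was 0.33 (SE 0.63, adjusted p = 0.865, exact permutation p = 0.643), and -0.175 without water 4.

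Jun (ENSMUSG00000052684) had 3256, 2564, 2315, 2761 and 1867 normalized counts in TDCA 1 to 5, and 1900, 3492, 3778, 2355 and 3828 in water 1 to 5. The groups overlapped, with TDCA 5 and water 1 lowest. Its log2 fold change was -0.24 (SE 0.21, adjusted p = 0.686, exact permutation p = 0.325). Junb (ENSMUSG00000052837), which can damp Jun, had 1099, 798, 647, 1084 and 541 normalized counts in TDCA 1 to 5, and 611, 1034, 1077, 794 and 1224 in water 1 to 5, with the same libraries at the bottom (log2 fold change -0.20, SE 0.23, adjusted p = 0.765, exact permutation p = 0.484). Jun overlaps the antisense gene Junos, Junb overlaps Prdx2 and Atf3 the small RNA gene Gm24748, all on the opposite strand in GENCODE M21. No source used here says whether reads were counted by strand, so reads of these 3 members and of their partners cannot be told apart.

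Atf3 (ENSMUSG00000026628) had 714, 1009, 256, 428 and 194 normalized counts in TDCA 1 to 5, and 975, 496, 677, 134 and 736 in water 1 to 5, a wide overlap (log2 fold change -0.21, SE 0.61, adjusted p = 0.909, exact permutation p = 0.770). Nr4a1 (ENSMUSG00000023034), induced by calcium and antigen receptor signals, had 67.4, 132, 30.6, 39.4 and 78.1 normalized counts in TDCA 1 to 5, and 52.9, 90.8, 47.3, 23.9 and 42.5 in water 1 to 5. Its log2 fold change of 0.36 (SE 0.41, adjusted p = 0.754, exact permutation p = 0.460) was 0.0902 without TDCA 2, 0.127 without water 4 and 0.057 after adjustment for the smooth muscle score. Ier2 (ENSMUSG00000053560) was the steadiest, with 446, 402, 427, 530 and 368 normalized counts in TDCA 1 to 5, and 413, 415, 469, 417 and 566 in water 1 to 5. Its log2 fold change was -0.07 (SE 0.13, adjusted p = 0.858, exact permutation p = 0.579), so that an interval of 2 standard errors on each side ran from -0.32 to 0.19. For Atf3 the same interval ran from -1.43 to 1.00, so a 2-fold lower level lay inside it and a 2-fold higher level at its upper edge.

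**Figure D3:**
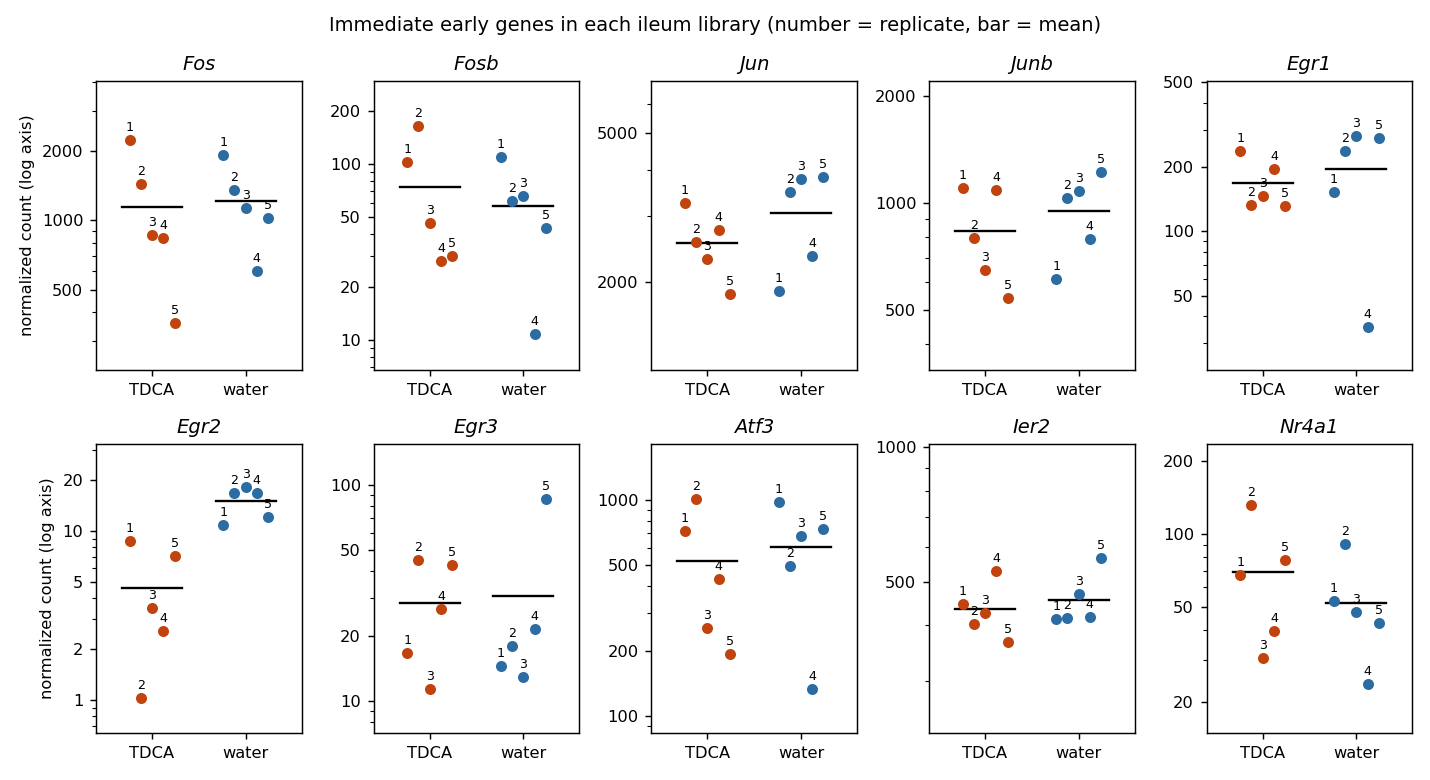
Normalized count (vertical, log axis) of each of the 10 immediate early genes in the 5 TDCA and the 5 water libraries (points, numbered by replicate) with the arithmetic mean (bar). For Egr2 the 5 TDCA libraries lie at 1.02 to 8.75 and the 5 water libraries at 10.8 to 18.3, and in the other 9 panels the groups overlap.

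Per length of transcript, as normalized counts per kilobase of the longest GENCODE M21 transcript, Jun was the most abundant member (800 in TDCA and 963 in water), followed by Fos (545 in TDCA and 574 in water), Junb (461 in TDCA and 524 in water), Ier2 (286 in TDCA and 300 in water), Atf3 (262 in TDCA and 304 in water), Egr1 (37.8 in TDCA and 43.8 in water), Nr4a1 (27.2 in TDCA and 20.2 in water), Fosb (19.7 in TDCA and 15.4 in water), Egr3 (7.21 in TDCA and 7.75 in water) and Egr2 (1.55 in TDCA and 5.04 in water). Between neighbours in this order, compared within libraries over all 10, Jun exceeded Fos in 8 of 10 libraries (exact sign-flip permutation p = 0.0117, adjusted p = 0.0352 over 9 neighbours), Junb exceeded Ier2 in 10 of 10 and Atf3 exceeded Egr1 in 10 of 10 (adjusted p = 0.00879 for both, exact permutation). The other 6 neighbours did not differ beyond their spread, and Fos and Junb were the closest (adjusted exact permutation p = 0.791). The order was taken from the same libraries that were tested. Counts of Jun, Junb and Atf3 may include reads of the genes that overlap them on the opposite strand.

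Most members varied strongly from mouse to mouse within a group. The SD of the log2 level within groups was 1.16 for Fosb, 1.06 for Atf3, 0.96 for Egr3, 0.91 for Egr1, 0.82 for Fos, 0.75 for Nr4a1 and 0.68 for Egr2, against a median of 0.30 over all tested genes. Among all tested genes 1.68% had a larger SD than Fosb and 4.96% a larger one than Fos. Junb (0.43) and Jun (0.39) lay nearer the median and Ier2 (0.20) below it, with 75.7% of tested genes more variable. Within the water group the highest library exceeded the lowest 10.2-fold for Fosb and 7.85-fold for Egr1, and 1.37-fold for Ier2.

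Some pairs of members varied together from library to library. Of 45 pairs of members, 3 had a correlation over the 10 libraries that passed after adjustment over the 45. Jun and Junb had a Pearson r of 0.94 (permutation p = 1.10e-04, adjusted p = 0.00495) and a Spearman rho of 0.90 (permutation p = 8.90e-04, adjusted p = 0.0268). Fosb and Atf3 had an r of 0.87 (permutation p = 7.50e-04, adjusted p = 0.0169) and a rho of 0.83 (permutation p = 0.00490, adjusted p = 0.0431). Fos and Atf3 had an r of 0.83 (permutation p = 0.00264, adjusted p = 0.0396) and a rho of 0.82 (permutation p = 0.00575, adjusted p = 0.0431).

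These relations held with the libraries farthest from the median of the first gene of each pair left out, with r at 0.89 for Jun and Junb (without water 5 and TDCA 5), 0.72 for Fosb and Atf3 (without water 4 and TDCA 2) and 0.87 for Fos and Atf3 (without TDCA 5 and TDCA 1). Values centred within each group gave r of 0.93, 0.90 and 0.82 for the same pairs. Fos and Fosb had an r of 0.78 (permutation p = 0.00817, adjusted p = 0.0735) and a rho of 0.89 (permutation p = 0.00119, adjusted p = 0.0268). By rho alone, Junb with Ier2 (rho 0.82, permutation p = 0.00563, adjusted p = 0.0431; r 0.78, permutation p = 0.00628, adjusted p = 0.0706) and Jun with Egr1 (rho 0.83, permutation p = 0.00509, adjusted p = 0.0431; r 0.60, permutation p = 0.0453, adjusted p = 0.227) passed as well. Fosb with Nr4a1 (r 0.71, adjusted permutation p = 0.153; rho 0.65, adjusted permutation p = 0.223), Egr1 with Atf3 (r 0.67, adjusted permutation p = 0.153; rho 0.44, adjusted permutation p = 0.540) and Jun with Ier2 (r 0.66, adjusted permutation p = 0.218; rho 0.72, adjusted permutation p = 0.131) did not pass. Fos and Jun, which meet in the AP-1 protein, had an r of 0.38 (permutation p = 0.286) and a rho of 0.30 (permutation p = 0.405).

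No correlation of Egr2 with another member passed, r lying between -0.30 and 0.32 with a median of 0.02 over its 9 pairs and adjusted permutation p-values of at least 0.700 for r and 0.539 for rho. At 1 to 17 reads of Egr2 per library, counting error draws r towards 0, so these values cannot exclude a relation. Without water 1 and TDCA 5, leaving 8 libraries, 0 of the 45 pairs passed.

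**Figure D4:**
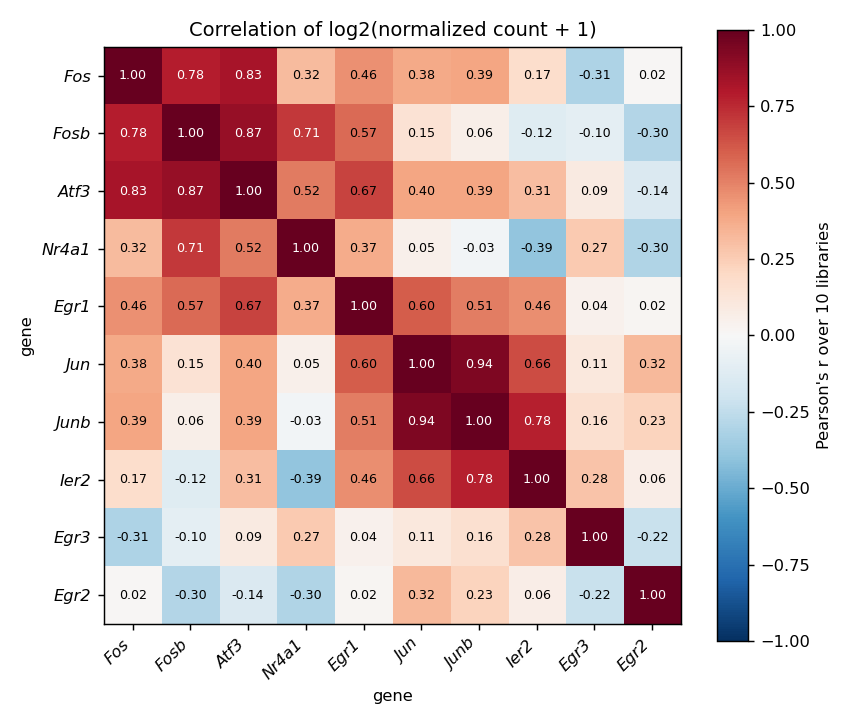
Pearson's r over the 10 libraries between the log2 levels of each pair of the 10 members (both axes, genes), with the value in each cell and colour from -1 to 1. The highest values are those of Jun with Junb (0.94), Fosb with Atf3 (0.87) and Fos with Atf3 (0.83), the 3 that passed after adjustment, and the row of Egr2 holds values between -0.30 and 0.32.

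Among 12122 other tested genes averaging 50 normalized counts or more and not named as predicted models, those most like Fos over the 10 libraries by Pearson's r were Lmo7 (0.96), Srsf4 (0.95), Cd8a (0.94), Actn4 (0.94) and Bcl2l1 (0.94). Lmo7 and Actn4 encode actin-associated proteins of epithelial junctions and the cytoskeleton, Srsf4 a splicing factor, Cd8a the T cell coreceptor and Bcl2l1 the survival protein BCL-xL. Cd8a averaged 97.0 ± 45.9 normalized counts in TDCA and 103 ± 35.4 in water (SD, n = 5 each). Without TDCA 5 and TDCA 1, the libraries with the least and the most Fos, r was between 0.83 and 0.88 for these 5 genes. The summed T cell markers had an r of 0.83 with Fos (permutation p = 0.00307, adjusted p = 0.184 over 120 relations; rho 0.68, permutation p = 0.0349), which did not pass, and 0.61 without TDCA 5 and water 4.

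Those most like Egr2 were Vac14 (r = 0.94), Vps52 (0.90) and Rnf126 (0.88), with Zfp213 and Sympk (0.86 each). Vac14 and Vps52 serve endosomal membranes and Rnf126 is a ubiquitin ligase. Centred within each group these r were 0.84, 0.69, 0.74, 0.64 and 0.80. Vac14 averaged 305 ± 32.1 normalized counts in TDCA and 367 ± 20.5 in water (SD, n = 5 each). These genes are the extremes of a ranking of 12122 genes, so the size of r carries no test.

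Other genes of the same response were described from 4 lists. Of 21 other early transcription factors 19 were tested, 7 higher and 12 lower in TDCA, with 0 past the threshold. The unadjusted p was under 0.05 for 1, Klf10, which was higher (5.95% of all tested genes were higher at that p). The median log2 fold change was -0.08. Klf10, a TGF-beta-induced factor, averaged 1480 ± 186 normalized counts in TDCA and 1199 ± 173 in water (log2 fold change 0.31, SE 0.13, adjusted p = 0.448). Cebpb (-0.33), the neuronal activity factor Npas4 (0.78) and Jund (-0.21) had adjusted p-values of 0.493, 0.553 and 0.619 in limma. Fosl1 and Egr4 were too low to test.

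Of 37 other early-induced genes, among them phosphatases, secreted proteins and RNA-binding proteins, 34 were tested, 15 higher and 19 lower, and 0 passed. The median was -0.06, and at an unadjusted p under 0.05 there were 4 higher (5.95% of all tested genes were) and 0 lower (5.01%). Ccn2, a matricellular protein induced by YAP and TGF-beta, had 476, 543, 390, 370 and 714 normalized counts in TDCA 1 to 5, and 298, 426, 258, 299 and 324 in water 1 to 5. Only TDCA 3 and TDCA 4 fell within the range of the water libraries. Its log2 fold change was 0.61 (SE 0.19, adjusted p = 0.448, exact permutation p = 0.0238), and 0.31 after adjustment for the smooth muscle score. The other 3 were Ier3 (0.51, SE 0.20), the NF-kappaB regulator Nfkbiz (0.45, SE 0.16) and thrombospondin 1, Thbs1 (0.43, SE 0.19), with adjusted p-values of 0.448, 0.448 and 0.450. After that adjustment Ier3 was at 0.15 and Thbs1 at 0.11, and Nfkbiz was at 0.53. Smooth muscle markers were higher in TDCA as well (11 of 11 genes), as were those of fibroblasts (6 of 6) and endothelium (5 of 5). The part of these cell types in these differences was not tested beyond the adjustment for smooth muscle. Dusp2, Arc and Cxcl1 were too low to test.

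Among 22 upstream kinases, bound factors and corepressors, all tested, 11 were higher and 11 lower, 0 passed and the median was -0.01. At an unadjusted p under 0.05 there were 1 higher and 3 lower (5.95% and 5.01% of all tested genes were). Map2k2, the kinase MEK2 that activates ERK, had 1956, 2072, 1825, 2101 and 1285 normalized counts in TDCA 1 to 5, and 2478, 2214, 2632, 2697 and 2230 in water 1 to 5. Again no TDCA library reached the water libraries (log2 fold change -0.42, SE 0.14, adjusted p = 0.448, exact permutation p = 0.00794). Such a lack of overlap, with TDCA below water, held for 0.823% of all tested genes. Mapk3, which encodes ERK1, was at -0.36 (SE 0.15), and the ribosomal S6 kinase genes Rps6ka1 and Rps6ka3, substrates of ERK, at -0.29 (SE 0.13) and 0.29 (SE 0.12). Their adjusted p-values were 0.448, 0.455 and 0.448, and Rps6ka1 was at -0.0828 after adjustment for the smooth muscle score.

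The 10 heat shock genes, which encode chaperones induced by protein damage, were all tested, 5 higher and 5 lower, with 0 passed. The median was -0.07, and 0 had an unadjusted p under 0.05 (11% of all tested genes had). Those with the smallest p were Dnajb1 (-0.37, SE 0.18), Hspe1 (-0.25, SE 0.15), Hspa8 (-0.28, SE 0.17) and Hspb1 (0.37, SE 0.25), with adjusted p-values between 0.466 and 0.593.

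**Figure D5:**
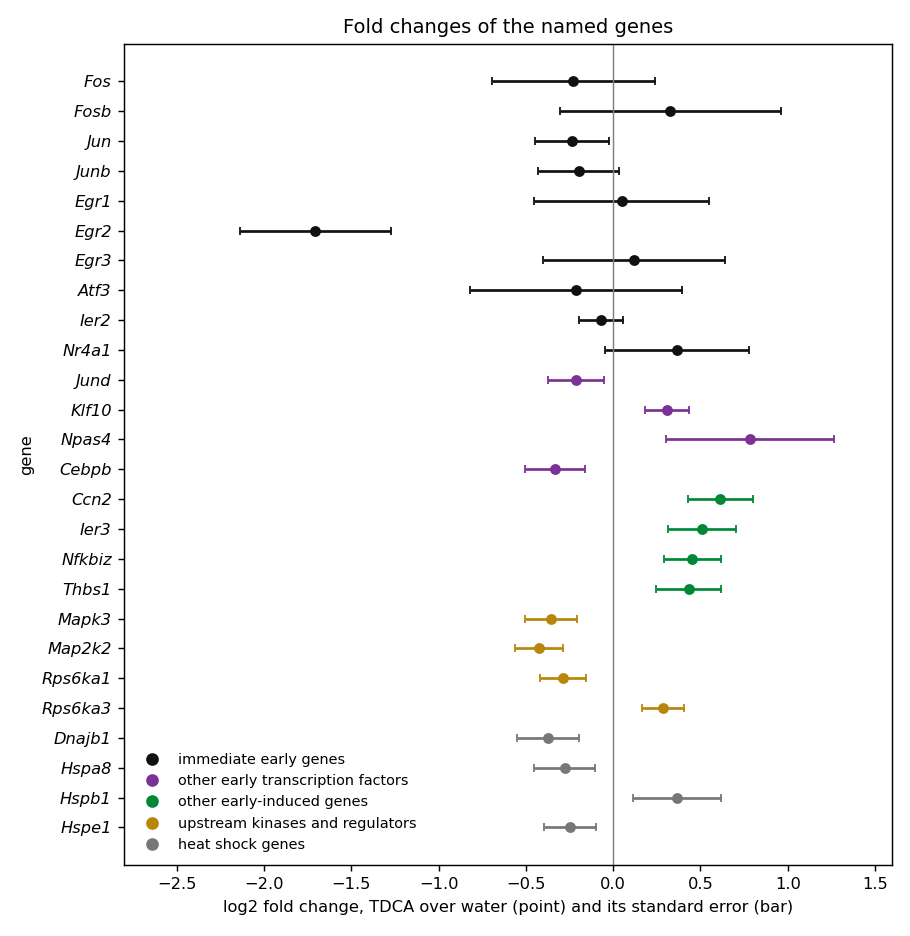
Log2 fold change of TDCA over water (points, horizontal axis) with its standard error (bars) for the 10 immediate early genes and the 4 genes with the smallest p in each of 4 related lists (rows, coloured by list). Egr2 lies at -1.71, and the other named genes lie between -0.42 and 0.78.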

How the data were processed

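Total RNA from about 20 mg of frozen ileum per mouse was sequenced after depletion of ribosomal RNA, per the labels' protocols. The submitters' processing notes name GRCm39, DESeq2 1.28.0 and MultiQC 1.9. No source used here names the aligner, the counter, its strand setting or the annotation. The deposited normalized counts were treated as a signal, reads divided by 1 size factor per library by the authors. Of these values 100% were whole multiples of the library's step within 1e-04 of a read, which gave back the whole reads. The authors' deposited comparison table gives log2 fold changes, a Wald score and p-values, per the file headers. Groups came from the labels, the design text names 5 biological replicates per group, and 0 columns were unmapped.

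Limma 3.58.1 in R 4.3.3 (trend, robust) tested log2(normalized count + 1) for 17507 genes. It was checked on simulated counts in which all changed genes lay well above the level of Egr2. The check therefore does not cover genes as low as Egr2. Single values and levels between genes were tested by exact permutation with scipy 1.17.1, and correlations by 100000 permutations. Alternatives were edgeR 4.0.16 (quasi-likelihood), DESeq2 1.42.0, limma-voom, other pseudocounts (0.5 and 8), filters (none and 50) and scalings, array weights, the replicate number as a block, a smooth muscle covariate and libraries left out. Lengths came from GENCODE M21 (GRCm38), found for 99.4% of tested genes. Sequences came from RefSeq's GRCm38.p6 table, a build other than that of the counts. Named were all members, the 4 genes of each related list with the smallest p, and the 5 genes most like Fos and Egr2, without predicted models. Members and lists were chosen with earlier results of these data known.
The comparisons of Egr2 with each other member were planned with its values known, and those of members with marker lists were chosen after seeing the data. A marker of the B cell list was left out of its sum and is not reported here.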

Additional observations from a re-analysis of the deposited data

Results flagged for a closer look

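Egr3 in water 5 stood far from the other libraries of its group, at 85.9 normalized counts against 12.9 to 21.5 in water 1 to 4, with a gap of 0.882 of the group's whole range to the nearest of them. The water group of Egr3 was the 1 group of 52 examined (26 named genes in 2 groups) with a gap above the cutoff of 0.71. Chance alone passes that cutoff in about 1 group in 20, so 1 flag among 52 groups is not more than chance gives. B cell markers were highest in the same library, at 3366 normalized counts (sum of 6) against 86.5 to 452 in water 1 to 4.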

How the results depend on the processing

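No member passed in either direction under any alternative, including DESeq2, which called 24 genes of 14633 with an adjusted p and gave none for Egr2, and the edgeR quasi-likelihood test, which called 0 genes (1755 at an unadjusted p under 0.05). Egr2 was lower in all 23 alternatives, at -1.96 to -1.39 with single libraries left out and -1.996 to -0.89 (pseudocount 8) otherwise, with adjusted p-values of 0.219 to 0.997. It dropped out with the filter of 50, as did Egr3 and Npas4. The replicate numbers did not pair the libraries (after centring, libraries correlated at -0.15 to 0.17 by the numbers in the descriptions, and at -0.06, -0.14 and 0.27 by the 3 numbers that the titles share), and with the replicate block Egr2 stayed at -1.71 (adjusted p = 0.544) with 0 genes called. The direction of 6 members turned. With array weights Fos was at 0.15, Atf3 at 0.0526 and Egr3 at -0.35. Without both water 1 and TDCA 5 Fos was at 0.32, Atf3 at 0.31 and Egr3 at -0.23. With the smooth muscle covariate Fos was at 0.18, Atf3 at 0.43, Ier2 at 0.0256, Egr3 at -0.21 and Hspb1 at -0.13. Egr1 was at -0.0122 with quantile normalization and at -0.21 in edgeR and DESeq2 (-0.215 there), and Egr3 at -0.13 in edgeR and -0.12 in DESeq2. With single libraries left out, Fos ran from -0.53 to 0.13, Fosb from -0.175 to 0.63, Egr1 from -0.48 to 0.25, Egr3 from -0.0846 to 0.58, Atf3 from -0.69 to 0.075 and Ier2 from -0.14 to 0.0114. The cause of these turns was not tested. The count of correlated pairs of members was 0 without both water 1 and TDCA 5, a fit with fewer libraries. The correlation of Egr3 with B cell markers, alternatives for which were chosen after seeing the data, was 0.94 to 0.97 with single libraries left out, 0.96 centred within groups, 0.96 without both water 1 and TDCA 5 and 0.92 without water 5 and TDCA 3. Depth limits Egr2 most, at 1 to 17 reads per library.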
